A study of Mus musculus with 10 samples.

Results

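The genes of mitochondrial complex I, its subunits and the factors that put it together, were measured in cultured fetal mouse testes with and without a glycogen phosphorylase inhibitor (GPI). The members were all rows of the count table whose gene symbol starts with Nduf, 48 of 24470 rows. They are 36 nuclear genes for complex I subunits, 8 Ndufaf genes for assembly factors, Ndufa4 and its paralog Ndufa4l2, whose products are not counted as complex I subunits, and 2 copies of subunit genes (Ndufs5-ps and Ndufb11b). Of the 48, 47 had enough counts to be tested, and Ndufb11b, with 1 count over all libraries, did not.

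Gonads with the attached mesonephros came from 5 C57BL/6 embryos at E12.5 (embryonic day) and were cultured for 48 h. From each embryo (M1 to M5), the gonad of 1 side received 75 µM GPI and the gonad of the other side received DMSO as vehicle, after which the testis was separated from the mesonephros for RNA sequencing. The strain was the same in all samples, no allele is named in the labels, the inhibitor was given to the whole explant, and each of the 10 libraries is a mix of all testis cells. Total counts per library ran from 10203679 to 15635322, of which 11918 to 19837 fell on Nduf rows.

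Complex I takes electrons from NADH, hands them along a flavin and a chain of iron-sulfur clusters to ubiquinone, and couples this to the pumping of protons out of the mitochondrial matrix. Its matrix arm holds the N module, where NADH binds, and the Q module, where ubiquinone is reduced, while its membrane arm holds the proton channels, whose core subunits are encoded by the mitochondrial genome. Around this core sit supernumerary subunits that stabilise the enzyme, and assembly factors bind its intermediates and leave before it is complete. In the fetal testis, steroid synthesis by Leydig cells begins in the mitochondria and draws on their electron carriers.

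Of the 48 members, 41 were matched to a RefSeq promoter (build GRCm38.p6, 250 bases before to 50 bases after the start of the gene). Shown here are the promoters of 4 members that were higher with GPI (Ndufc2, Ndufc1, Ndufs6 and Ndufaf7) and, for comparison, that of Ndufb6, the subunit gene whose values were lower with GPI in all 5 embryos. Ndufc2 lies at chr7:97399753-97400052 on the plus strand, Ndufc1 at chr3:51408906-51409205 on the minus strand, Ndufs6 at chr13:73328433-73328732 on the minus strand, Ndufaf7 at chr17:78936885-78937184 on the plus strand and Ndufb6 at chr4:40279372-40279671 on the minus strand. Each is written 5′ to 3′ along its gene, and capitals mark 3 motifs read on both strands: the NRF1 core GCGCATGC, the ETS letters CCGGAAG bound by GABPA, and the YY1 letters AAGATGG, none of which overlaps another in these 5 windows (the NRF1 core can overlap its own reverse complement).
Ndufc2: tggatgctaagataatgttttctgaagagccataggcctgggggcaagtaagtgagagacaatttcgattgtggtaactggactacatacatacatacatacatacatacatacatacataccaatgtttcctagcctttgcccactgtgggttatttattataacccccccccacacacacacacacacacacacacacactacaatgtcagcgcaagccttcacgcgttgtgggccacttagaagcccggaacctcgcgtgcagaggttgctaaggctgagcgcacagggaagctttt
Ndufc1: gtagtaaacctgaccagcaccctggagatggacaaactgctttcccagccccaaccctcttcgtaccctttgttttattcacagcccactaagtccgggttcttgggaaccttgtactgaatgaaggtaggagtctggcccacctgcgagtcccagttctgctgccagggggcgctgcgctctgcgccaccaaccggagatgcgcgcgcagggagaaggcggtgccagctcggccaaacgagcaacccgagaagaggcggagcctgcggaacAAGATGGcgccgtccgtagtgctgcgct
Ndufs6: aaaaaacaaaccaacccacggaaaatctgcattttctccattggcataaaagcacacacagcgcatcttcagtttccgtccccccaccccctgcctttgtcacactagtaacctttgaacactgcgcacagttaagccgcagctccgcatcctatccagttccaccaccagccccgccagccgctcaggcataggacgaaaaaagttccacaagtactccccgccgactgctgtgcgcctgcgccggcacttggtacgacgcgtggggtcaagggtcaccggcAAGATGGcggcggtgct
Ndufaf7: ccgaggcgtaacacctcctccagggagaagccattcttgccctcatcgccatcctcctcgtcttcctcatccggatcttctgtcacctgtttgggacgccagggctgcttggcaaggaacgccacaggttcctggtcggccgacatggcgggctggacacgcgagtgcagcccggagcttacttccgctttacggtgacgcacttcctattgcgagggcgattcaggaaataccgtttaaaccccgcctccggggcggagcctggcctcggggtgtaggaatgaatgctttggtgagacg
Ndufb6: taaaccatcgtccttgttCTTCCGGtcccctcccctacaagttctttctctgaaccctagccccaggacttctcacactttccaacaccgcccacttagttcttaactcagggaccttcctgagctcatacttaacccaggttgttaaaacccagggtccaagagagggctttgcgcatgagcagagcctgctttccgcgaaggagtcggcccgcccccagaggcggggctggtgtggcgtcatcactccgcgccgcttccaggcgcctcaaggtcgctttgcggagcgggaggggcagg

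The capitals fall in 3 of these 5 promoters, with the YY1 letters in Ndufc1 and Ndufs6 and the ETS letters, on the opposite strand, in Ndufb6. Among the 41 matched members, 8 held the YY1 letters (19.5%), against 7.28% of all 27025 genes with a promoter, tested here or not. In all 8 the letters were on the strand of the gene and began after the start site, between bases 11 and 39, an arrangement found in 1.54% of all genes. The letters contain ATG, and whether they cover a start codon was not examined. The 8 are Ndufa3, Ndufa9, Ndufaf8, Ndufb8, Ndufc1, Ndufs4, Ndufs6 and Ndufs7, of which Ndufc1 and Ndufs6 were called higher. The NRF1 core was in 5 members (12.2% against 3.05%) and in Ndufaf4 it occurred both before and after the start site. The ETS letters were in 6 (14.6% against 9.93%), the SP1 letters GGGCGG in 22 (53.7% against 38.2%), the estrogen-related receptor element letters AAGGTCA in 3 (7.32% against 5.38%), the hypoxia response element letters ACGTG in 7 (17.1% against 21.8%) and the TATA letters TATAAA in 4 (9.76% against 15.7%), all read on both strands. A match describes letters in a window and was not linked to any change in level.

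The members share other features that their names did not fix. Their promoters had a median GC content of 59.0%, against 52.8% over all promoters, and a median of 20 CpG pairs, against 7. All promoters include those of genes not tested here, while length and neighbours below are compared with tested genes. The median transcript of a member was 1005 bases long, against 3256 bases over all tested genes. Of the 47 tested members, 15 (31.9%) started within 1000 bases of a gene running the other way, such as Ndufaf7 beside Cebpz, Ndufb5 beside the mitochondrial ribosome gene Mrpl47 and Ndufaf5 beside Esf1, against 13.5% of 13940 tested genes with an identifier of their own. The 48 genes were spread over 17 chromosomes, with 2 on X (Ndufa1 and Ndufb11).

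The first question is how many members differed between the gonads of an embryo. A gene was called where edgeR's quasi-likelihood test, with the embryo in the model, gave a Benjamini-Hochberg adjusted p under 0.05 over all 13941 tested genes. Of 47 tested members, 6 were called (12.8%), against 22.9% of all tested genes: 5 were higher with GPI (10.6%, against 11.1%) and 1 was lower (2.13%, against 11.9%). The called genes were Ndufc2, Ndufc1, Ndufb9, Ndufs6 and Ndufaf7 on the higher side and Ndufa4l2 on the lower side. The share called higher was close to that of all tested genes. The number of members called higher fell when an embryo was left out, to 3 without M1, 4 without M2, 1 without M3, 1 without M4 and 2 without M5, and the share called of all tested genes fell in the same fits, to 22.1%, 21.5%, 16.6%, 16.6% and 19.6%. Of the 41 members not called, 5 had an unadjusted p under 0.05. Apart from Ndufa4l2 (log2 fold change -2.80), the fold changes of the members were small, and most were of 1 sign: 39 of 47 were positive (83%), against 52.5% of all tested genes, and their median log2 fold change was 0.15, against 0.02. Positive fold changes also made up 76.3% of the nuclear subunits of complexes II to V. They made up 69.3% of mitochondrial and 76.8% of cytosolic ribosome proteins. With total counts as the scale, 33 of 47 Nduf genes were positive.

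**Figure D1:**
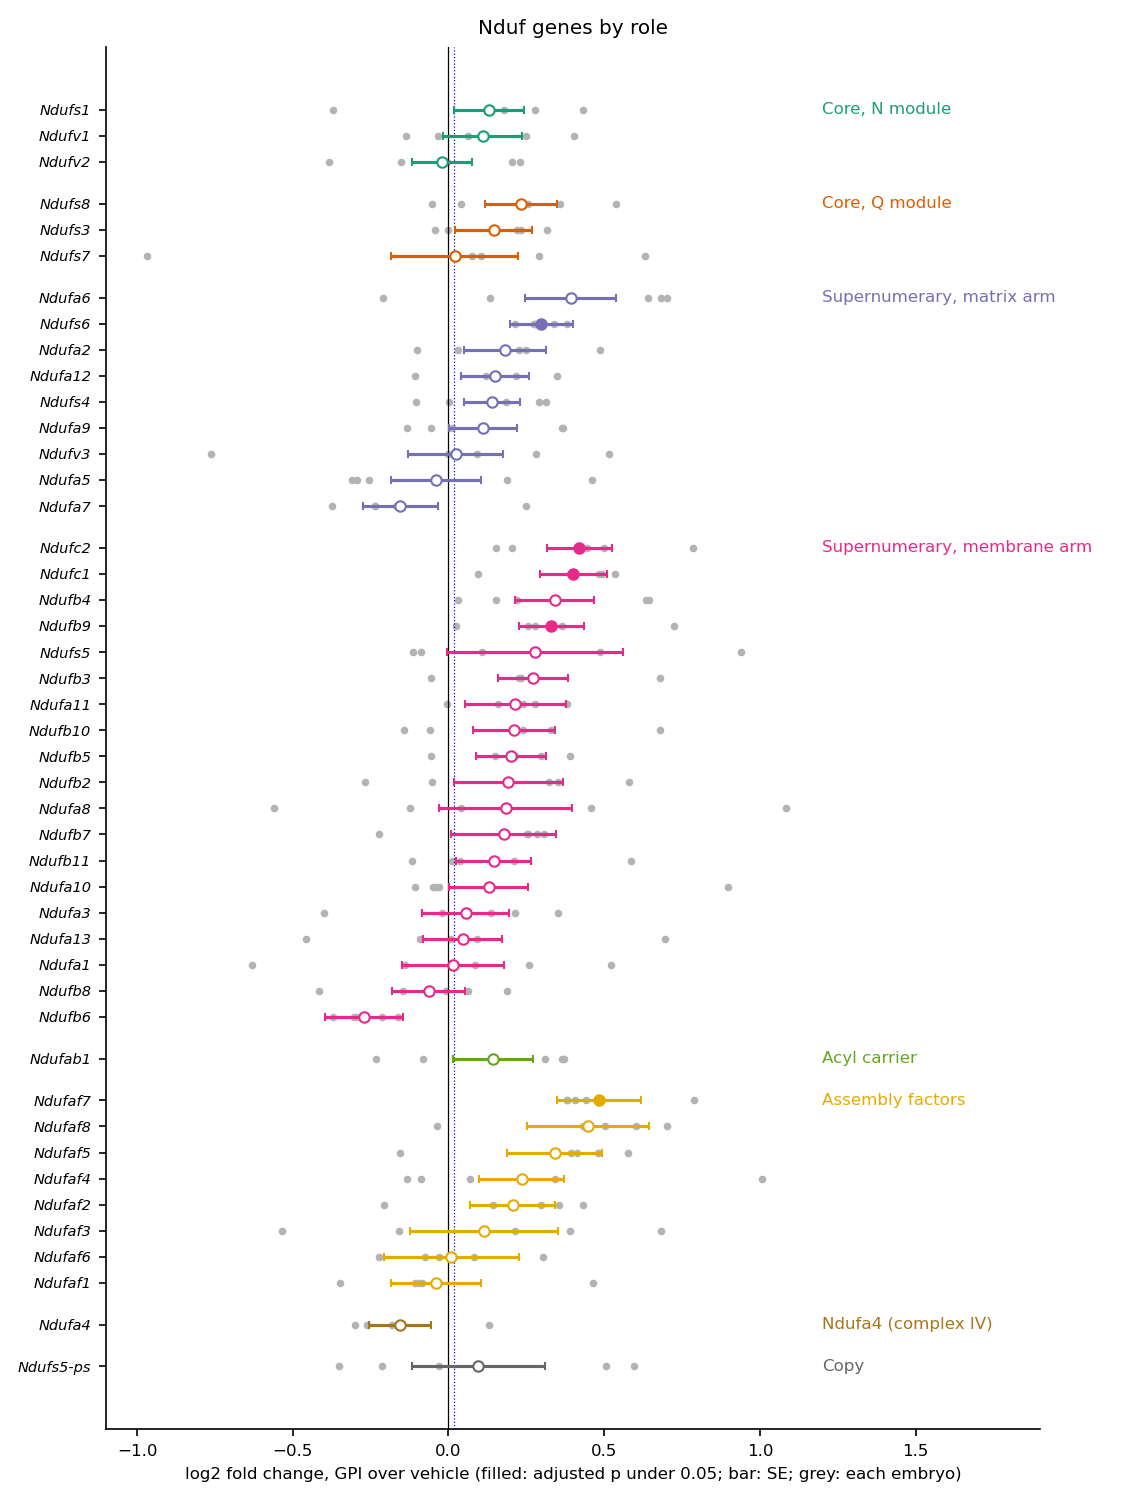
Log2 fold change of GPI over vehicle (horizontal axis) for the Nduf genes shown, grouped by role (vertical axis), with the standard error as a bar, a filled circle where the gene was called, grey points for the 5 embryos and a dotted line at the median of all tested genes. Ndufa4l2, at -2.80, is outside the range drawn and is left out; most other genes lie to the right of 0, and the grey points of most of them spread over both sides.

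The counts were drawn from whole testes, in which fewer cells of a type and less RNA per cell cannot be told apart. Markers of several cell types moved strongly between the groups. Over all tested genes, 11.1% were called higher and 11.9% lower. Of 8 endothelial markers, 8 were called lower, and their summed level went from 624, 643, 596, 687 and 610.2 CPM (counts per 1000000 counts of the library, scaled by TMM, the trimmed mean of M-values) in the vehicle gonads M1 to M5 to 69.4, 81.5, 56.4, 45 and 57.6 in the GPI gonads, with Cdh5 the most abundant in vehicle and Kdr in GPI gonads. Of 8 germ cell markers 7 were tested and 5 (Dazl, Ddx4, Dppa3, Mael and Sall4) were called lower, with sums of 138, 233, 171, 222 and 123 CPM against 73.6, 58.9, 62, 78.4 and 75.4 CPM, and Pou5f1 had too few counts to be tested. Kit, which was not called, was the most abundant and held most of the GPI sum; the median log2 fold change of the 7 was -4.62. In both lists every GPI gonad was below every vehicle gonad. Of 8 macrophage markers 7 were called lower (sums 82.9, 53.9, 64.8, 60 and 60.3 CPM against 35.2, 30.8, 28.8, 16.9 and 20 CPM, Ptprc most abundant in vehicle and Cd68 in GPI gonads), and of 8 erythroid markers 7 were called lower (sums 167, 225, 423, 397 and 332 CPM against 149.9, 82, 76.6, 86.4 and 202 CPM, Hbb-y most abundant). Fetal Leydig markers went the other way: 7 of 7 tested were called higher, and their sums were 161, 293, 403, 226 and 521 CPM against 946, 988, 1483, 1693 and 1250.3 CPM, with Hsd3b1 the most abundant in vehicle and Cyp11a1 in GPI gonads, and Insl3 not tested. Of 8 Sertoli markers 6 were called higher, including Sox9, with sums of 262, 397, 301, 393 and 419 CPM against 297, 544, 551, 716 and 542 CPM and Aard the most abundant. Sertoli and Leydig markers were thus detected in all 10 libraries, which are labelled as testis. Of 8 interstitial progenitor markers 2 were called higher (Maf and Pdgfra) and 3 lower, with sums of 1452, 1582, 1579, 1412 and 1522 CPM against 1579, 1678, 1495, 1412 and 1721 CPM and Pdgfra the most abundant. Of 8 markers of mesonephric epithelium 6 were tested and 3 (Cdh1, Epcam and Emx2) were called lower. The other 3 tested were not called: Pax8 (log2 fold change -0.28), Krt8 (-0.30) and Gata3 (0.10). The sums of the 8 were 177, 123, 144, 106 and 93.7 CPM against 83.4, 95.3, 65, 61.2 and 82.3 CPM, with Emx2 the most abundant. Pax2 and Lhx1 had too few counts to be tested. No marker of these lists was at 0 in all libraries, and the part of these cell types in the Nduf values was not tested.

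Summed over the 36 nuclear subunits, the level was 962, 987, 1013, 1042 and 1032 CPM in the vehicle gonads M1 to M5 and 1056, 1080.4, 1081, 1171 and 1132 CPM in the GPI gonads. Every GPI gonad was above every vehicle gonad, and the means were 1007 ± 32.5 and 1104 ± 46.7 CPM (SD, n = 5 per group), so the GPI sum was 109.6% of vehicle. With total counts as the scale, an alternative added after the data were seen, the groups overlapped (vehicle up to 1071.5 CPM, GPI from 1028.2 CPM), M3 was not higher with GPI, and the GPI sum was 105.9% of vehicle. Ndufa10 contributed the most counts to this sum. Of the 36 subunits 4 were called higher (11.1%, against 11.1% of all tested genes) and 0 lower (against 11.9%) by edgeR. An unadjusted p under 0.05 was reached by 7, and 31 had a positive fold change. DESeq2 and limma-voom likewise called no subunit lower. The median log2 fold change was 0.15, and within embryos M1 to M5 the median log2 ratios of the subunits were 0.21, 0.15, 0.02, 0.22 and 0.25. M3 was thus the embryo in which the subunits moved least. With total counts as the scale the median log2 fold change was 0.095, against -0.031 over all tested genes.

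**Figure D2:**
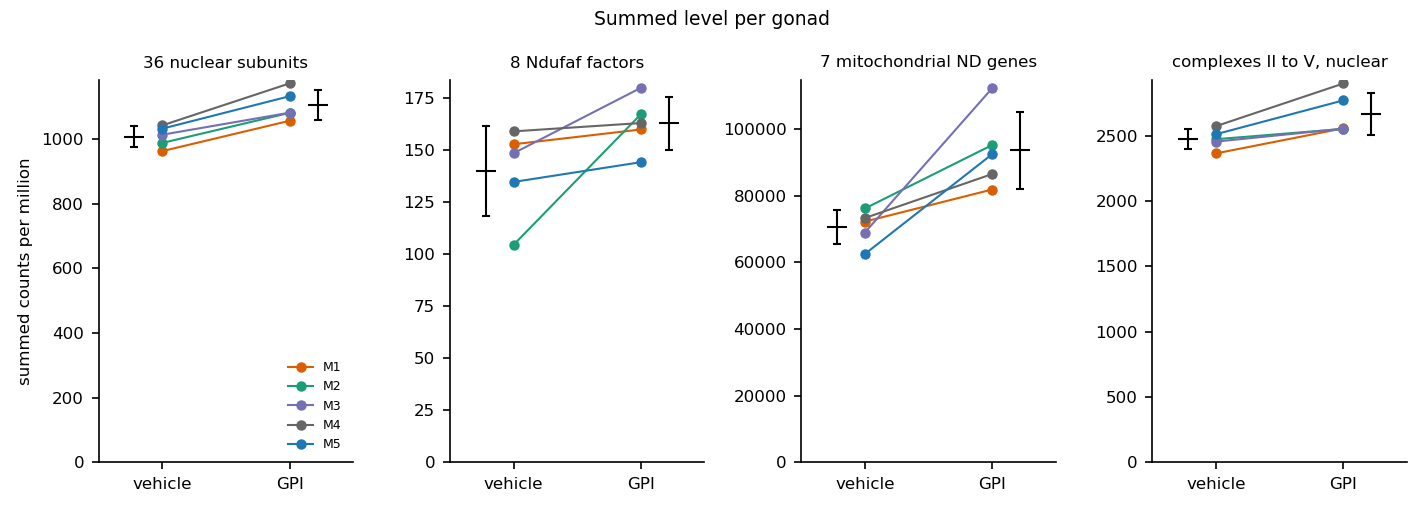
Summed CPM (vertical axes, from 0) of 4 gene lists in each vehicle and GPI gonad, with lines joining the gonads of an embryo and the mean ± SD of each group beside them. The sum of the 36 nuclear subunits and that of the 7 mitochondrial ND genes were higher in all GPI gonads than in any vehicle gonad; with total counts as the scale this held for the ND genes and not for the nuclear subunits.

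Among the subunits, the 7 nuclear core subunits carry the redox centres and the NADH and ubiquinone sites. Their normalized counts ranged from 99.7 (Ndufs7, vehicle M1) to 1232 (Ndufv2, vehicle M2), where normalized counts are counts scaled by TMM to the mean library. None of the 7 was called by edgeR (against 22.9% of all tested genes), and 0 had an unadjusted p under 0.05. Of the 7 fold changes 6 were positive, and their median was 0.11. In the N module, Ndufv1, which binds NADH and the flavin, had a log2 fold change of 0.11 (SE 0.13), Ndufs1, which carries iron-sulfur clusters, 0.13 (SE 0.11), and Ndufv2 -0.02 (SE 0.10). In the Q module, the log2 fold changes included 0.23 (SE 0.12) for Ndufs8, 0.15 (SE 0.12) for Ndufs3 and 0.02 (SE 0.20) for Ndufs7. Ndufs7 was higher with GPI in 4 of 5 embryos and lower in M2 (log2 ratio -0.968), where the vehicle gonad stood far above the others. The sum of the 7 core subunits was 243 ± 12.4 CPM in vehicle and 254 ± 11 CPM in GPI gonads (SD, n = 5 per group), and the groups overlapped. For the 29 supernumerary subunits, including the acyl carrier, the sums were 764 ± 33.3 CPM and 850.2 ± 39.4 CPM, with no overlap. Of the 29, 4 were called higher (13.8%, against 11.1% of all tested genes). With total counts as the scale the supernumerary sums overlapped too (vehicle up to 811.9 CPM, GPI from 778.7 CPM). Whether the core and supernumerary subunits differ from each other in their response was not tested.

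Of 9 supernumerary subunits of the matrix arm, Ndufs6 was the one called (11.1% called higher, against 11.1% of all tested genes). Ndufs6, a zinc-binding subunit between the N and Q modules (chr13:73319876-73328482, minus strand, mm10), stood at 266, 277, 281, 319 and 285 normalized counts in the vehicle gonads M1 to M5 and at 347, 336, 340.4, 370.3 and 361 in the GPI gonads. All 5 GPI values lay above all 5 vehicle values, and the ratios within embryos were close to each other, from 0.22 (M4) to 0.38 (M1) on the log2 scale. The means were 286 ± 19.9 and 351 ± 14.4 (SD, n = 5 per group; log2 fold change 0.30, SE 0.10, edgeR adjusted p = 0.0462; higher in 5 of 5 embryos). The call was near the threshold and was lost with DESeq2 (4 members called higher there), with other scalings, with other filters and whenever an embryo was left out. Ndufa6, which binds the acyl carrier near the Q module, was not called (log2 fold change 0.39, SE 0.15, edgeR adjusted p = 0.0728, higher in 4 of 5 embryos), but it was called without M2, with no low-count filter and with the GC and length trend removed. The other 7 ranged from -0.15 (Ndufa7) to 0.18 (Ndufa2), and none was called.

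Of the 19 supernumerary subunits of the membrane arm, 3 were called higher (15.8%, against 11.1% of all tested genes). Ndufc2, a small subunit of the proximal membrane arm (chr7:97400003-97407800, plus strand), was at 493, 563, 490.2, 482 and 501 normalized counts in the vehicle gonads and at 547, 649, 668, 832 and 708 in the GPI gonads of M1 to M5. Vehicle M2 was the highest vehicle value and GPI M1 the lowest GPI value, and these overlapped, while each embryo's GPI gonad was above its own vehicle gonad. The means were 506 ± 32.8 and 681 ± 103 (SD, n = 5 per group; log2 fold change 0.42, SE 0.10, edgeR adjusted p = 0.00942; higher in 5 of 5 embryos), and the call was lost without M4, the embryo with the widest gap, where the log2 fold change was 0.33 (edgeR adjusted p = 0.0605; 0.00597 to 0.0605 over all leave-one-out fits).

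Ndufc1, which pairs with Ndufc2 in the enzyme (chr3:51405479-51408955, minus strand), was at 264, 354, 257, 293 and 287 normalized counts in vehicle and at 346, 379, 362, 425 and 402 in GPI gonads. Vehicle M2 stood above the other vehicle gonads and just above GPI M1, and the 5 embryos all had more with GPI. The means were 291 ± 38.6 and 383 ± 31.5 (SD, n = 5 per group; log2 fold change 0.40, SE 0.11, edgeR adjusted p = 0.0146). The call was lost without M3, M4 or M5. Ndufb9, of the distal part of the arm (chr15:58933810-58939489, plus strand), was at 409, 606, 562, 523 and 422 normalized counts in vehicle and at 527, 616, 682, 624 and 698 in GPI gonads. The gonads of M2 differed little and those of M5 the most, and the groups overlapped. The means were 504 ± 86.5 and 629.5 ± 67.4 (SD, n = 5 per group; log2 fold change 0.33, SE 0.10, edgeR adjusted p = 0.0364; higher in 5 of 5 embryos), and the call was lost without the embryo in the model, with total counts as the scale, and without M1, M3, M4 or M5.

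Ndufb6, of the distal membrane arm, had the lowest fold change of the 36 subunits. It stood at 175, 202, 183, 186 and 202 normalized counts in the vehicle gonads and at 142, 163, 158, 166 and 156 in the GPI gonads of M1 to M5. All 5 GPI values lay below all 5 vehicle values, yet the difference did not pass the test (log2 fold change -0.27, SE 0.13, edgeR adjusted p = 0.147; lower in 5 of 5 embryos; means 189.6 ± 11.9 and 157 ± 9.3, SD, n = 5 per group). Groups without overlap were seen in 3 members, Ndufs6 and Ndufaf7 on the higher side and Ndufb6 on the lower side, or 6.38% of 47, against 16.1% of all 13941 tested genes; by direction, 4.26% of the members had all GPI values above and 2.13% all below the vehicle values, against 7.07% and 9.04% of all tested genes. Ndufb4, in contrast, was higher with GPI in 5 of 5 embryos with overlap (log2 fold change 0.34, SE 0.13, edgeR adjusted p = 0.0735) and was not called. The rest of the 19 membrane-arm subunits lay between -0.06 (Ndufb8) and 0.28 (Ndufs5).

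**Figure D3:**
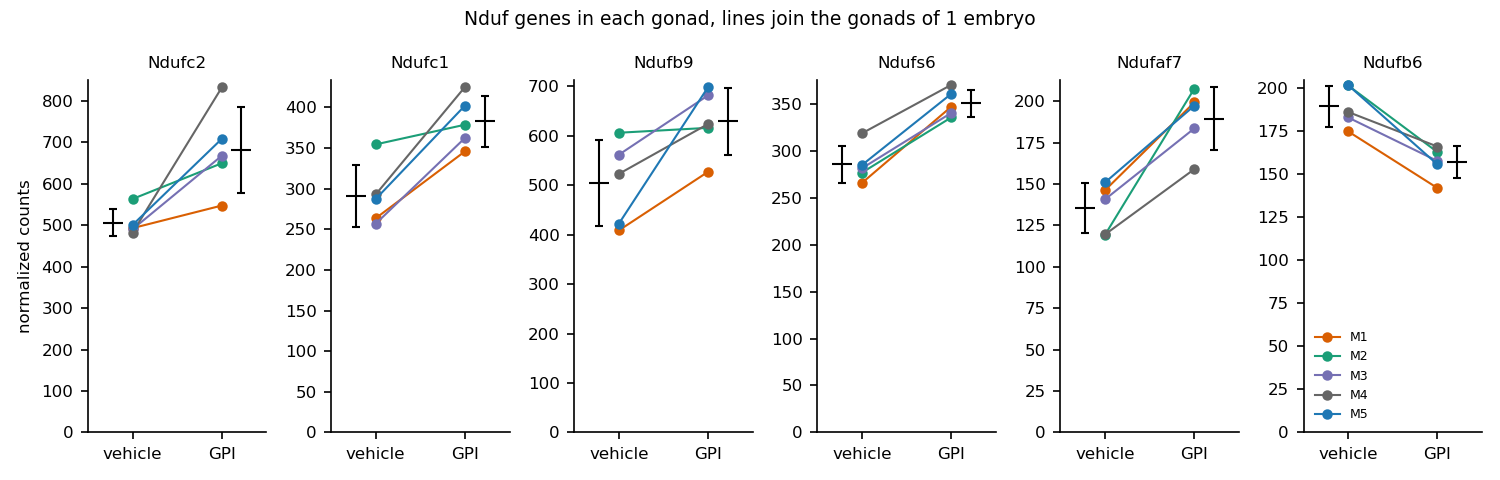
Normalized counts (vertical axes, from 0) of the 5 Nduf genes called higher with GPI and of Ndufb6 in each gonad, with lines joining the gonads of an embryo and the mean ± SD of each group beside them. The lines of the first 5 genes slope up and those of Ndufb6 slope down in all 5 embryos, and the groups do not overlap for Ndufs6, Ndufaf7 and Ndufb6.

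Levels of different genes were compared per kilobase of the longest protein-coding transcript. On this scale Ndufa13, also known as GRIM-19, was the most abundant subunit in vehicle gonads, at 779.9 ± 154 normalized counts per kb (SD, n = 5), followed by Ndufc2 at 741 ± 48 and Ndufb9 at 716 ± 123; these 3 did not differ beyond their spread. The least abundant was Ndufb2 at 23.5 ± 3.4 per kb, a value that rests on a transcript model of 4371 bases, and next came Ndufs5 at 52 ± 10.5 per kb. Ndufa13 was at 958, 649, 1062, 1104 and 1106 normalized counts in vehicle and at 963, 1053, 1131, 1035 and 804 in GPI gonads of M1 to M5, with vehicle M2 and GPI M5 the lowest of their groups, and it was not called (log2 fold change 0.05, SE 0.13, edgeR adjusted p = 0.846). Its gene overlaps Tssk6 on the other strand, and the counting did not use strand, so their reads cannot be told apart. Ndufb2 was at 117, 93.1, 118, 99.6 and 85.3 and 113, 119, 97.9, 125 and 129 normalized counts, with overlapping groups (log2 fold change 0.19, SE 0.18, edgeR adjusted p = 0.491; log2 fold change 0.09 without M5 and 0.29 without M3). Ndufab1, the acyl carrier, which also serves mitochondrial fatty acid synthesis, was higher with GPI in 3 of 5 embryos (log2 fold change 0.14, SE 0.13, edgeR adjusted p = 0.478).

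The 8 Ndufaf assembly factors summed to 153, 105, 149, 159 and 135 CPM in the vehicle gonads and to 159.9, 167, 179.9, 163 and 144 CPM in the GPI gonads of M1 to M5. The sum was higher with GPI in 5 of 5 embryos, with overlap between the groups, since vehicle M4 exceeded GPI M5; vehicle M2 was the lowest library. Of the 8, 1 was called higher (against 11.1% of all tested genes) and 0 lower (against 11.9%) by edgeR. An unadjusted p under 0.05 was reached by 3, 7 fold changes were positive, and the median log2 fold change was 0.22. DESeq2 and limma-voom each called Ndufaf7 alone among the 8.

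Ndufaf7, a methyltransferase that acts in complex I assembly (chr17:78937135-78948052, plus strand), was at 146, 119, 141, 119.5 and 151 normalized counts in vehicle and at 199, 208, 184, 159 and 197 in GPI gonads. All 5 GPI values exceeded all 5 vehicle values, and M2 had the widest gap. The means were 135 ± 14.9 and 189 ± 19.1 (SD, n = 5 per group; log2 fold change 0.48, SE 0.14, edgeR adjusted p = 0.0194; higher in 5 of 5 embryos), the highest fold change of the 47 tested members. The call was lost without M2 (edgeR adjusted p = 0.0566) and without M3 (0.0593), and the adjusted p ranged from 0.0408 to 0.0593 over the leave-one-out fits.

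The other 7 factors were not called. Ndufaf8, a partner of Ndufaf5, was at 54.3, 46.5, 62.5, 90.6 and 67.8 normalized counts in vehicle and at 73.9, 77, 96, 88.4 and 97 in GPI gonads, with M4 alone not higher (log2 fold change 0.45, SE 0.20, edgeR adjusted p = 0.122). Ndufaf5, which hydroxylates the core subunit Ndufs7, was at 141, 101, 107, 136 and 171 against 197, 134, 161, 181 and 154, with M5 alone not higher (log2 fold change 0.34, SE 0.15, edgeR adjusted p = 0.133). In both genes the groups overlapped. Ndufaf4, a factor of the Q module pathway, was at 1079, 600.2, 1015, 1129.5 and 802 against 1014, 1207, 1288, 1029 and 842, and vehicle M2, the lowest library, gave the widest gap (log2 fold change 0.23, SE 0.14, edgeR adjusted p = 0.256; log2 fold change 0.048 without M2). Ndufaf2, a late-acting factor paralogous to the subunit Ndufa12, was at 165, 201, 172, 163 and 165 against 212, 174, 190.2, 221 and 203. Vehicle M2 was its highest vehicle value (log2 fold change 0.21, SE 0.14, edgeR adjusted p = 0.321, and log2 fold change 0.31 without M2). These genes were higher with GPI in 3 (Ndufaf4) and 4 (Ndufaf2) of 5 embryos. Ndufaf3, which acts with Ndufaf4, was at 81.9, 38.2, 52.5, 41.8 and 76.9 against 56, 44.6, 69.4, 68.4 and 68.6, higher in 3 of 5 embryos (log2 fold change 0.12, SE 0.24, edgeR adjusted p = 0.787). Ndufaf6 was at 53.2, 65.6, 60.3, 54.8 and 44.2 against 66, 55.9, 57.1, 53.7 and 46.9 (log2 fold change 0.01, SE 0.22, edgeR adjusted p = 0.983). Ndufaf1, a factor of the membrane arm intermediate, was at 165, 118, 222, 226 and 184 against 156, 164, 174, 212 and 171, lower in 4 of 5 embryos (log2 fold change -0.04, SE 0.14, edgeR adjusted p = 0.877). In these 3 genes the groups overlapped, and the sign of each turned under at least 1 alternative or left-out embryo.

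Set against each other within embryos, subunits and assembly factors did not separate. The median log2 ratio of the subunits minus that of the Ndufaf factors was -0.12, -0.28, -0.34, 0.03 and 0.17 in M1 to M5. The factors were thus further up in M1, M2 and M3 and the subunits in M4 and M5, and the mean difference of -0.11 was smaller than its SD over embryos of 0.21 (n = 5). Of 13 further assembly genes without an Nduf name, 0 were called by edgeR, against 22.9% of all tested genes (4 with an unadjusted p under 0.05). Of their fold changes 11 were positive, and the median was 0.25. The smallest p among them belonged to Tmem70, at 176, 214, 157, 131 and 196 normalized counts in vehicle and 228, 191, 249, 195 and 287 in GPI gonads (log2 fold change 0.40, SE 0.14, edgeR adjusted p = 0.0608); it was called without M2 (0.541, edgeR adjusted p = 0.0104).

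**Figure D4:**
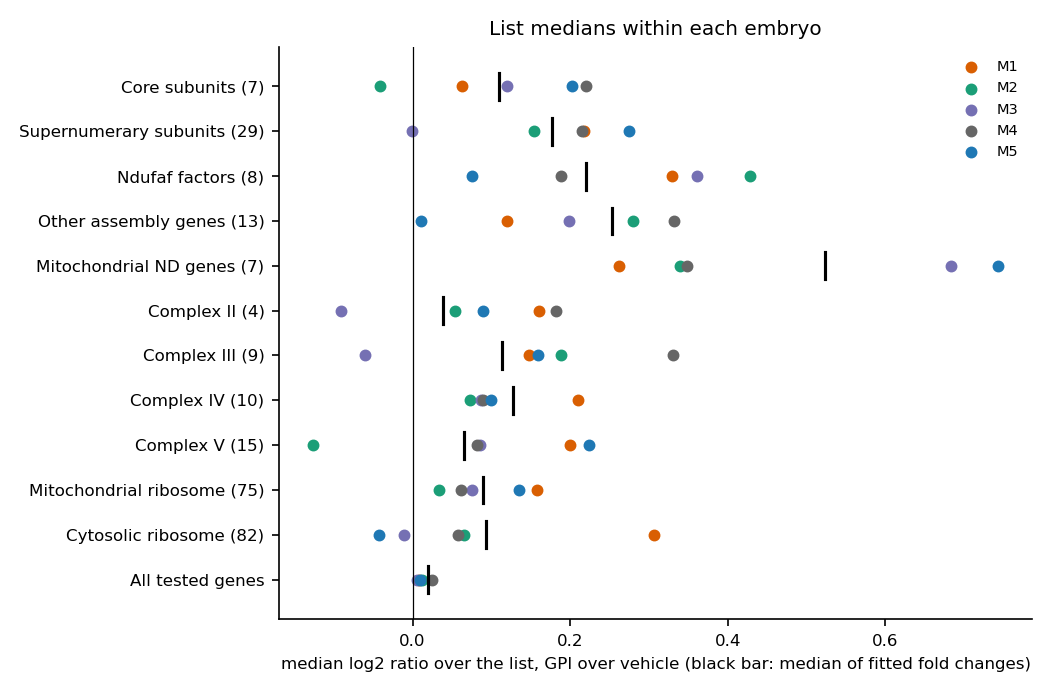
Median log2 ratio of GPI over vehicle within each embryo (horizontal axis, 1 coloured point per embryo) for complex I gene lists, the other respiratory complexes, ribosomal proteins and all tested genes (vertical axis, number of genes in brackets), with the median of the fitted fold changes as a black bar. The mitochondrial ND genes sit farthest to the right in M3, M4 and M5, the Ndufaf factors do so in M1 and M2, and the points of subunits and assembly factors overlap.

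The 7 core subunits of the membrane arm are encoded by the mitochondrial genome as ND1 to ND6 and ND4L. Their sum was 72253, 76194, 68979, 73329 and 62526 CPM in the vehicle gonads and 81892, 95236, 112267, 86525 and 92485 CPM in the GPI gonads of M1 to M5. Every GPI gonad was above every vehicle gonad, the sum being 132.6% of vehicle. Of the 7, 6 were called higher (85.7%, against 11.1% of all tested genes), and the median log2 fold change was 0.52. ND2 had the smallest p, with 135231, 156993, 139768, 147092 and 113539 normalized counts in vehicle and 185036, 229571, 285543, 199024 and 210705 in GPI gonads (log2 fold change 0.67, SE 0.09, edgeR adjusted p = 8.55e-05; higher in 5 of 5 embryos). In ND2 the groups did not overlap, and GPI M3 was the highest. ND3 (log2 fold change 0.52, SE 0.07, edgeR adjusted p = 0.000156) and ND4 (log2 fold change 0.59, SE 0.10, edgeR adjusted p = 0.000489) followed, both higher in 5 of 5 embryos. ND6, the only one of the 7 read from the other strand of the mitochondrial genome, was not called (log2 fold change 0.19, SE 0.08, edgeR adjusted p = 0.12; higher in 4 of 5 embryos), and since the counting did not use strand, reads from the opposite strand cannot be told apart from its own. All 13 rows of the mitochondrial genome together held 9.62% to 11.4% of the counts in vehicle and 11.9% to 16.4% in GPI gonads; 9 of the 13, a set chosen after its values were seen, were called higher. With these 13 rows removed before scaling, also tried after the values were seen, 4 Nduf genes were called higher and 1 lower. ND5 lost its call without M3 (log2 fold change 0.23, edgeR adjusted p = 0.0778), and ND6 was called without M1 (0.244, edgeR adjusted p = 0.0353), with no low-count filter (0.183, edgeR adjusted p = 0.0313) and with the GC and length trend removed (0.381, edgeR adjusted p = 0.00104), while without M3 its log2 fold change was 0.094 (edgeR adjusted p = 0.541). Mitochondrial transcripts against nuclear subunit transcripts were not compared by a test.

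Nuclear subunits of complexes II to V were set beside those of complex I. Of 38 such genes 5 were called higher (13.2%, against 11.1% of all tested genes) and 0 lower (against 11.9%) by edgeR. An unadjusted p under 0.05 was reached by 9, and the median was 0.10. By complex, the medians were 0.04 for complex II, 0.11 for complex III, 0.13 for complex IV and 0.07 for ATP synthase, beside 0.15 for the complex I subunits. The called genes were Uqcrq of complex III (log2 fold change 0.38, SE 0.12, edgeR adjusted p = 0.0427), Cox6c of complex IV (log2 fold change 0.43, SE 0.07, edgeR adjusted p = 0.000748) and, of ATP synthase, Atp5j (log2 fold change 0.34, SE 0.08, edgeR adjusted p = 0.00682), Atp5c1 (log2 fold change 0.29, SE 0.08, edgeR adjusted p = 0.0143) and Atp5g3 (log2 fold change 0.27, SE 0.09, edgeR adjusted p = 0.0499). The calls of Uqcrq (without M3, M4 or M5), Atp5c1 (without M4 or M5) and Atp5g3 (without M1, M3, M4 or M5) were lost when an embryo was left out. Uqcrq also lost its call with DESeq2 (adjusted p = 0.0616), without the embryo in the model (0.0569) and with total counts (0.0817), and Atp5g3 without the embryo in the model (0.0768), with DESeq2 size factors (0.0564), with total counts (0.116), with at least 10 counts in every library (0.0541) and without the mitochondrial genome (0.059). Complex II had no call, and its smallest p was that of Sdhd (log2 fold change 0.19, SE 0.08, edgeR adjusted p = 0.0945). The 75 tested proteins of the mitochondrial ribosome had a median of 0.09 with 4 called higher, or 5.33% (Mrpl16, Mrpl41, Mrps11 and Mrps23, named after their values were seen). The 82 of the cytosolic ribosome had a median of 0.09 with 6 called higher (7.32%) and 3 lower (Rpl41, Rps2 and Rpsa, also named after their values were seen). Of 14 regulators of mitochondrial biogenesis 1 was called higher (7.14%, against 11.1% of all tested genes) and 0 lower (against 11.9%). It was Ppargc1a, a coactivator of nuclear genes for mitochondrial proteins (log2 fold change 0.40, SE 0.11, edgeR adjusted p = 0.0137, higher in 5 of 5 embryos). Its call was lost without M3, M4 or M5. Of the 14 fold changes 8 were negative, and the median was -0.04. Gabpa was lower in 5 of 5 embryos (log2 fold change -0.20, edgeR adjusted p = 0.0807) and was not called. Nrf1 was lower in 4 of 5 (log2 fold change -0.265, edgeR adjusted p = 0.11) and was not called either.

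Ndufa4 and Ndufa4l2 carry the family name, although the product of Ndufa4 is found in complex IV and Ndufa4l2 is its paralog, known as a target of hypoxia-inducible factor that lowers oxygen use when it is high. Ndufa4 (chr6:11900373-11907446, minus strand) was at 394, 471, 463, 499 and 450.3 normalized counts in vehicle and at 353, 416, 507, 416 and 365 in GPI gonads. It was lower in 4 of 5 embryos, M3 being the exception, with overlapping groups (log2 fold change -0.16, SE 0.10, edgeR adjusted p = 0.304; log2 fold change -0.245 without M3 and -0.09 with the GC and length trend removed). Ndufa4l2 (chr10:127514939-127517154, plus strand) was at 233, 172, 119.5, 203 and 219 normalized counts in the vehicle gonads and at 273, 13.8, 11.4, 4.2 and 17.4 in the GPI gonads of M1 to M5. The GPI gonads of M2, M3, M4 and M5 were far below all vehicle gonads, from 17 raw counts in M2 down to 4 in M4, while that of M1, with 244 raw counts, had the highest normalized value of all 10 libraries. The means were 189 ± 45 and 64 ± 117 (SD, n = 5 per group; log2 fold change -2.80, SE 0.57, edgeR adjusted p = 0.00274; lower in 4 of 5 embryos), the largest change of any member. Without M1 the log2 fold change was -3.92 (edgeR adjusted p = 3.66e-07), and without the embryo in the model it was -1.60 and not called (edgeR adjusted p = 0.137); over the alternatives the adjusted p ran from 3.66e-07 to 0.137. The Ndufa4l2 gene shares its last 32 bases with the end of Shmt2 on the other strand, and Shmt2 moved the other way (log2 fold change 0.41, SE 0.11, edgeR adjusted p = 0.0136), so reads in that stretch cannot be told apart.

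Most of the other targets of hypoxia-inducible factor tested were, like Ndufa4l2, higher with GPI in M1 and lower in M2 to M5. Among the exceptions, Ankrd37 and Ddit4 were lower in M1 too (log2 ratios -0.262 and -0.024). Hk2 was higher in all 5 embryos, and Car9 was higher in M2 and M3 as well as in M1. Of 13 tested targets 11 were called lower, against 11.9% of all tested genes, and the median was -1.02. The 1 called higher was the glycolytic enzyme Hk2 (log2 fold change 0.47, SE 0.09, edgeR adjusted p = 0.0017). Within embryos the medians were 0.46 in M1 and -1.20, -1.51, -1.39 and -1.57 in M2 to M5. Summed, these genes were at 1245, 1245, 964, 935 and 1116 CPM in vehicle and at 1741, 590.4, 415, 460.3 and 500.1 CPM in GPI gonads, so that GPI M1 was the highest of all libraries and the other 4 GPI gonads were below every vehicle gonad. Adm, the peptide adrenomedullin, was at 803, 1453, 718, 751 and 819.8 normalized counts against 909, 304, 79.9, 151 and 268 (log2 fold change -1.79, SE 0.33, edgeR adjusted p = 0.00137), and Egln3, a prolyl hydroxylase, at 467, 615, 474, 510 and 477 against 645, 80.3, 47.5, 58.9 and 74.1 (log2 fold change -2.27, SE 0.44, edgeR adjusted p = 0.00181). Both were higher with GPI in M1 and lower in the other 4 embryos. Without M1 the median was -1.41 and 11 of the 13 were called lower, and with treatment alone in the model 2 were. GPI M1 shared the low endothelial markers (69.4 CPM) and the high Leydig markers (946 CPM) of the other GPI gonads. Its Sertoli markers (297.1 CPM) lay within the vehicle range (261.7 to 418.9 CPM) and below the other GPI gonads (541.7 to 716 CPM). The part of hypoxia in the Ndufa4l2 values was not tested.

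**Figure D5:**
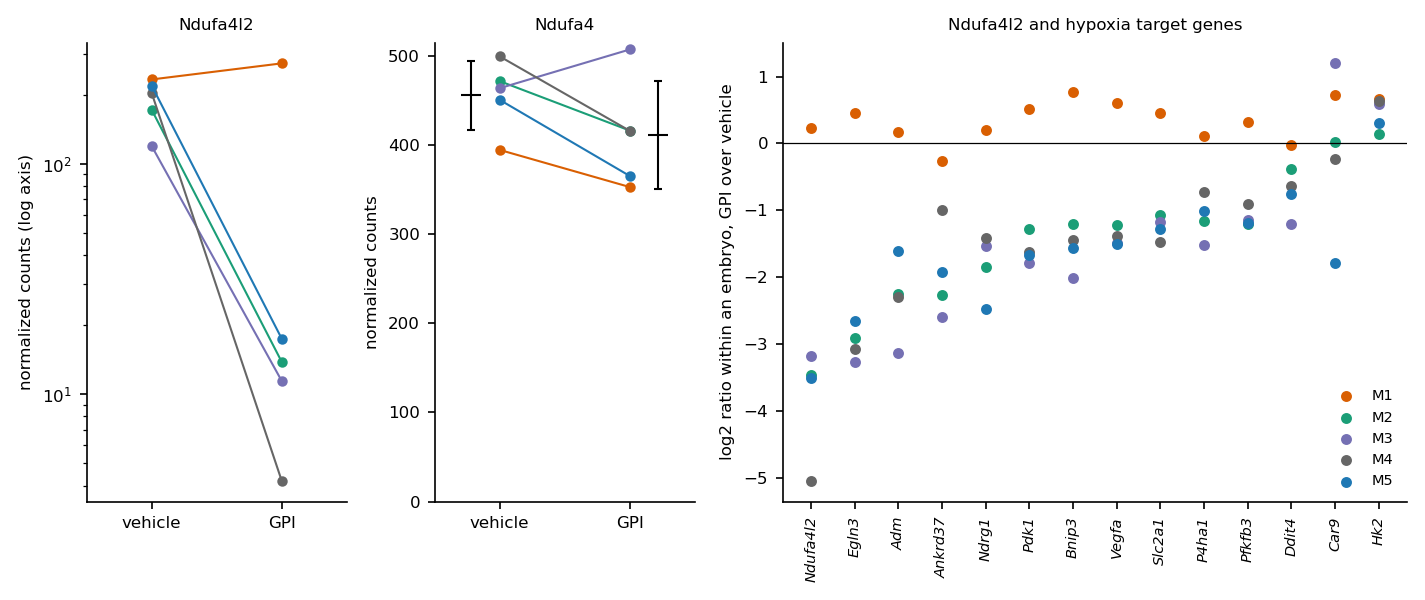
Normalized counts of Ndufa4l2 (left, log axis) and Ndufa4 (middle, from 0, with the mean ± SD of each group) in each gonad, with lines joining the gonads of an embryo, and (right) the log2 ratio of GPI over vehicle within each embryo for Ndufa4l2 and 13 hypoxia target genes. On the right M1 lies above 0 for all genes but Ankrd37 and Ddit4, while M2 to M5 lie below 0 for all but Car9 and Hk2.

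Ndufs5 and its copy Ndufs5-ps may share reads. Ndufs5, a subunit on the intermembrane side, was at 28.8, 34.6, 41.3, 43.8 and 28.2 normalized counts in vehicle and at 57.1, 32.4, 38, 47.3 and 40.3 in GPI gonads, and Ndufs5-ps, which lies within Zbtb20 on the same strand, was at 49.8, 106, 68.1, 74.7 and 54.9 against 71.6, 82.7, 66.6, 64.2 and 83.9. The copy had more counts than the gene in every library but none of the differences passed the test (log2 fold change 0.28, SE 0.28, edgeR adjusted p = 0.544 for Ndufs5, whose log2 fold change was 0.087 without M1, and log2 fold change 0.10, SE 0.21, edgeR adjusted p = 0.807 for the copy), and how the counting divided their reads is uncertain. Of the 48 rows, 8 overlap another row of the table, and none of the 5 called higher is among them.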

How the data were processed

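RNA from 10 cultured testes (5 embryos, 1 GPI and 1 vehicle gonad each) was amplified with a kit that does not keep strand. The authors aligned paired reads to mm10 with STAR (2.5 per the submitters' processing notes) and counted them per RefSeq gene without strand with featureCounts of Subread 1.5.0-p1, and the deposited values are raw counts per gene. From these counts, genes were kept by filterByExpr (minimum count 10, minimum total 15), libraries were scaled by TMM, and GPI was compared with vehicle in edgeR 4.0.16 (R 4.3.3) by quasi-likelihood tests with the embryo in the model, as in the study's own design, with Benjamini-Hochberg adjustment at 0.05 over 13941 genes. The members and lists were chosen with earlier results of these data known, and lists are described by counts and medians alone.

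The pairing comes from the animal named in the labels. Deviations from the group means correlated by 0.06 on average within embryos (-0.04 to 0.16) and by -0.02 between embryos (exact one-sided permutation p = 0.05 over 120 pairings). No pair of libraries of a treatment agreed within sampling noise (chi-square per degree of freedom 6.42 to 27.8). Ratios within an embryo used a prior count of 2. Values of all libraries are given for called Nduf genes, all Ndufaf genes, Ndufa4, Ndufa4l2 and the most and least abundant subunit, for Tmem70 and ND2 (the smallest p of their lists), and for Adm, Egln3, Ndufb6, Ndufs5 and Ndufs5-ps; core subunits are given as a range and other genes by their fold change or call. Ndufb6, Ndufs5, Ndufs5-ps, Ndufa6, Ndufb4, ND6, Ankrd37, Ddit4, Car9, Gabpa, Nrf1 and Shmt2 were named after their values were seen. Transcript lengths are those of the longest protein-coding GENCODE M21 transcript. Alternatives were DESeq2 1.42.0, limma 3.58.1 (voom), no embryo term, other scalings and filters, a GC and length offset, and each embryo left out; removal of the mitochondrial genome was chosen after seeing the data. The values of some tested genes are not reported here. The code was tested on simulated counts. Promoter sequences are from RefSeq (GRCm38.p6) and were searched in Python 3.11.15.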

Additional observations from a re-analysis of the deposited data

Results flagged for a closer look

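In 9 of 94 groups of 5 gonads checked for the Nduf genes, the highest or lowest gonad lay far from the other 4 for the spread of its group; chance gives about 1 in 20 groups. The groups share libraries, so the flags are not independent of each other. Of the 9, 6 were the vehicle gonad of M2, the library with the fewest total counts (10203679) and the fewest Nduf counts (11918). There, Ndufa6 stood at 325.8 normalized counts (the others at 199 to 225), Ndufaf2 at 200.5 (163 to 172), Ndufc2 at 563.2 (482 to 501), Ndufs7 at 239.8 (99.7 to 139) and Ndufv3 at 600.2 (352 to 366), all above the other vehicle gonads, while Ndufb3 stood at 263.7, below them (378 to 400.4). In vehicle M5, Ndufs1 was at 705.5 (500 to 523). In GPI M4, Ndufa9 was at 563.9 (379 to 409.8). Ndufa4l2 in GPI M1 was at 273.1 against 4.2 to 17.4 in the other GPI gonads, and its log2 fold change without M1 was -3.92. Without M2, 4 Nduf genes were called higher, among them Ndufa6, which was not called in the main fit but was also called with all embryos with no low-count filter and with the GC and length trend removed.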

How the results depend on the processing

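The number of Nduf genes called higher, 5, was 3 with total counts as the scale, 4 to 6 under the other alternatives that kept all embryos, and 1 to 4 when an embryo was left out; Ndufs6, near the threshold, was lost most often. The number called lower, 1, was 0 with no replicate block (the pairing by embryo) and 0 with at least 10 counts in every library, a filter that removes Ndufa4l2. The number of hypoxia targets called lower, 11, was 2 with no replicate block. Without the block Ndufb9 and Ndufa4l2 lost their calls, and no other called Nduf gene did. Direction under each alternative was followed for only some of the Nduf genes. Among these it turned for Ndufaf6 (-0.041 with total counts, -0.001 with at least 10 counts in every library, -0.003 without the mitochondrial genome, and -0.083 to 0.071 when an embryo was left out). It also turned for Ndufa13 (-0.005 with total counts, and -0.113 to 0.173 when an embryo was left out), for Ndufaf1 (-0.161 to 0.023 when an embryo was left out) and for Ndufaf3 (-0.029 to 0.267 when an embryo was left out). Over all 47 members, 39 fold changes were positive in the main fit, 33 with total counts, and 34 to 40 when an embryo was left out. Members not named here therefore turned as well. The cause was not tested. The median of the subunits and that of the Ndufaf factors stayed above 0 under every alternative. The standard error was largest for Ndufa4l2, followed by Ndufs5, Ndufaf3 and Ndufaf6.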
